A study of Homo sapiens with 4 samples.

Results

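The human germ cell tumour lines GCT27 (labelled embryocarcinoma, that is embryonal carcinoma) and GCT44 (labelled yolk sac tumour) were set against TCam-2 (labelled seminoma) and NT2D1 (labelled teratoma). A gene was taken as separating the pairs when the lowest line of one pair exceeded the highest line of the other by at least 1 on the log2 scale, that is by 2-fold. Intensities under 76.4 units, the median of all values, were first set to that floor, because lower intensities are not ordered on such arrays. Of 15001 genes compared, 300 met the rule, 143 higher and 157 lower in GCT27 and GCT44. These shares were 0.953% and 1.05% of the genes compared. The rule used the measured values, so the size of the differences below is a description of the members and carries no test.

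RNA was measured on 1 Affymetrix-type oligonucleotide array of 54675 probe sets per line, and no line has a replicate. All 4 are established lines of testicular germ cell tumours, NT2D1 being labelled as coming from a lung metastasis. GCT27, GCT44 and NT2D1 were grown in DMEM and TCam-2 in RPMI, with serum in every culture, and the labels give no treatment. Each line is a single line per subtype, so the lines of a pair differ in subtype and are not replicates of a condition. NT2D1 behaves in culture as pluripotent embryonal carcinoma, so its values stand for that line and not for differentiated teratoma tissue. In RNA from a whole culture, fewer cells with a transcript and less transcript per cell cannot be told apart.

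Germ cell tumours arise from the embryonic germ line. Seminoma keeps features of primordial germ cells, embryonal carcinoma those of pluripotent stem cells, and yolk sac tumour those of extra-embryonic endoderm, while teratoma forms somatic tissues. A pairing of the embryonal carcinoma line with the yolk sac line therefore cuts across the usual division into seminoma and non-seminoma.

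The labels were checked against marker genes. Of 22 yolk sac and visceral endoderm genes compared, 18 lay above the floor in GCT44 and 6 in GCT27, against 6 in TCam-2 and 6 in NT2D1. Of 18 pluripotency genes, 17 did so in GCT27 and 9 in GCT44, against 18 in TCam-2 and 17 in NT2D1. Germ cell genes were above the floor for 9 of 17 in GCT27 and 8 in GCT44, against 13 in TCam-2 and 12 in NT2D1. On the GCT44 array the 3'/5' signal ratio of ACTB was 4.21, against 2.49 to 2.97 on the other arrays, while that of GAPDH was 1.04 within a range of 0.898 to 1.09.

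The same rule applied to the other pairings of the 4 lines gave 605 genes for NT2D1 and GCT27 against TCam-2 and GCT44, and 462 for NT2D1 and GCT44 against TCam-2 and GCT27. The pairing described here thus had the smallest number, 300. A moderated linear model in limma, with GCT27 and GCT44 against TCam-2 and NT2D1, called 0 of 15001 genes (0%) at a Benjamini-Hochberg adjusted p of 0.05, with a smallest adjusted p of 0.143. At an unadjusted p of 0.05 the limma fit called 431 genes, or 2.87%. Its spread comes from lines of different subtypes with 2 residual degrees of freedom.

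LINC00458, a long non-coding RNA known from human pluripotent stem cells, had by far the widest margin. Its intensity was 28002 units in GCT27 and 24943 in GCT44, against 72.8 in TCam-2 and 64.1 in NT2D1. The fold between the nearest lines was at least 326-fold, since both TCam-2 and NT2D1 lay under the floor. Its other probe sets showed the same division. One had 16968 units in GCT27 and 13785 in GCT44, against 41.8 in TCam-2 and 13.0 in NT2D1. Another had 4263 units in GCT27 and 1428 in GCT44, against 5.43 in TCam-2 and 3.78 in NT2D1. All 3 probe sets were bright in the GCT pair and under the floor in the other pair. The margin was 8.35 with the chosen probe set and 7.49 with the median over them.

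The embryonal carcinoma line and the yolk sac line shared this transcript while differing in core pluripotency factors. NANOG, a core pluripotency factor, had 22428 units in GCT27 and 2.29 in GCT44, against 22390.2 in TCam-2 and 13322 in NT2D1. SOX2, its partner in stem cells, had 18309 units in GCT27 and 6.41 in GCT44, against 391 in TCam-2 and 20575 in NT2D1. LIN28A, an RNA-binding protein of early embryonic cells, had 21142 units in GCT27 and 17339.7 in GCT44, against 14828 in TCam-2 and 30531 in NT2D1. NANOG and SOX2 were bright in GCT27 and under the floor in GCT44, and LIN28A was bright in every line. The other long non-coding RNAs of the same list that could be compared, TUNAR, DANCR, MEG3 and MALAT1, did not meet the rule.

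The study paired these arrays with DNA methylation arrays, which are not used here. Methylation in mammals falls mainly on CG dinucleotides, so their number near the transcription start is shown for some members with wide margins. These were picked by hand among those whose promoter sequence was at hand. Genes with wider margins than EOMES, such as AGGF1 and TMEM232, were not among those looked up for display. Sequences are from RefSeq (GRCh38.p14) and run from 250 bases before to 50 after the annotated start, 5′ to 3′ on the gene's strand, with each CG in capitals. EOMES lies at chr3:27722274-27722573 on the minus strand, SCG5 at chr15:32641460-32641759 on the plus strand, TDRD12 at chr19:32719517-32719816 on the plus strand and GAS1 at chr9:86947457-86947756 on the minus strand.
EOMES: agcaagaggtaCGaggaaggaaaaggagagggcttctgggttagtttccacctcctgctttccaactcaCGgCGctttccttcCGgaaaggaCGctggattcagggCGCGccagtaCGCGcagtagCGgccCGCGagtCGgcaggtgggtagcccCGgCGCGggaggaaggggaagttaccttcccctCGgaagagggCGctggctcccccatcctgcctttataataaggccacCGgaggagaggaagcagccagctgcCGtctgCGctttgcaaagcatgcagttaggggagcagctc
SCG5: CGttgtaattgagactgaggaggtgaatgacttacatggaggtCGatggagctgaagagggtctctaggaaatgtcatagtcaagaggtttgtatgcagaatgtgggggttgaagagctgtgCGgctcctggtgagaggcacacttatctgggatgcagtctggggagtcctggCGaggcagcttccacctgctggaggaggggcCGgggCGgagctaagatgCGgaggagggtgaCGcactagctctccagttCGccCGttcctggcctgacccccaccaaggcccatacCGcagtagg
TDRD12: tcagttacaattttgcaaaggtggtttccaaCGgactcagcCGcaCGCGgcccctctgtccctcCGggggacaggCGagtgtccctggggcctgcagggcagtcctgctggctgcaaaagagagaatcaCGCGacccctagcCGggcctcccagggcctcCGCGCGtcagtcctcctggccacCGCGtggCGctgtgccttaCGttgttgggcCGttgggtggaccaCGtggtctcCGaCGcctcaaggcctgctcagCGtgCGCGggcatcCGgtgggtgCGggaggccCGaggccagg
GAS1: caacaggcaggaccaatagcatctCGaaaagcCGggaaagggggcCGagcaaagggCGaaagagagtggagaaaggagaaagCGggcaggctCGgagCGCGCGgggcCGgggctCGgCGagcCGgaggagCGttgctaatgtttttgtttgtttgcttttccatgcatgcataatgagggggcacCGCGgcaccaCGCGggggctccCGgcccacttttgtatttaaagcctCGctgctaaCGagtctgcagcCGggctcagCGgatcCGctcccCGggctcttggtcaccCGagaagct
EOMES, higher in the GCT pair, has 21 CG dinucleotides in its 300 bases. Of the lower genes SCG5 has 11, and TDRD12 and GAS1 have 26 each.

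Promoters of this length were found for 119 of 143 higher genes, 122 of 157 lower genes and 11975 of 15001 genes compared. The median CG count was 20 for higher genes, 26 for lower genes and 25 over all genes compared. Fewer than 5 CG dinucleotides were present in 14.3% of the higher, 8.2% of the lower and 9.41% of all promoters. Motifs were searched on both strands. The octamer ATGCAAAT was found in 3 higher (2.52%) and 3 lower (2.46%) promoters and in 1.35% of all. The T-box element TCACACCT was found in 0 of 119 higher promoters, 1 lower promoter and 0.735% of all. The AP-2 element GCCNNNGGC was found in 21.8% of higher, 29.5% of lower and 30.9% of all promoters. These matches are descriptions of the letters and not of binding.

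**Figure D1:**
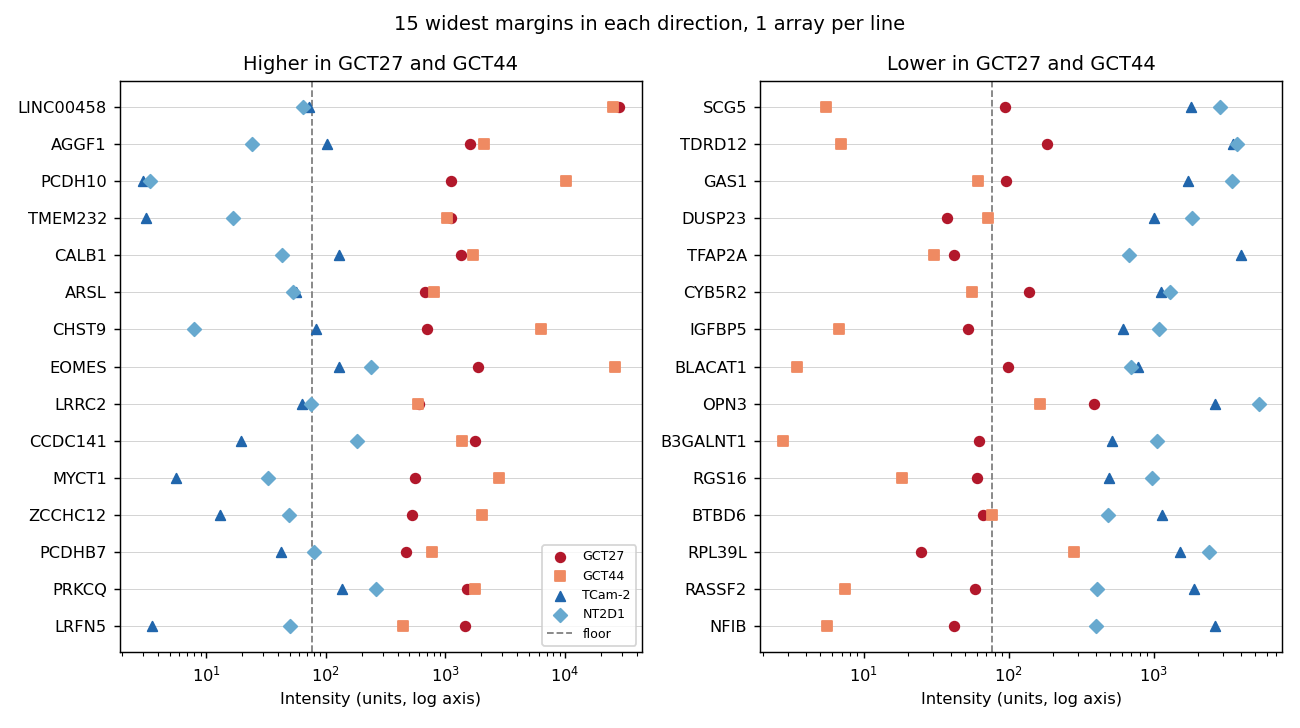
Intensity in units on a log axis of the 15 genes with the widest margins in each direction, each point 1 array of 1 line and the dashed line the floor of 76.4 units. By the rule, GCT27 and GCT44 points lie right of TCam-2 and NT2D1 in the left panel and left of them in the right panel. LINC00458 stands furthest apart.

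Genes of cell adhesion were found on both sides. By the roles assigned by hand to members alone, 16 of 143 higher and 19 of 157 lower genes were of adhesion, matrix or cytoskeleton. No share over all genes compared is at hand, so these counts cannot be set against a background. On the higher side PCDH10, PCDHB7 and LRFN5 were among the 15 widest margins. PCDH10, a protocadherin, had 1124 units in GCT27 and 10261 in GCT44, against 2.995 in TCam-2 and 3.42 in NT2D1. It was at least 14.7-fold higher between the nearest lines, and GCT44 was well above GCT27. Its margin of 3.88 was 1.91 when probe sets were summarised by their median. PCDH17, of the same subfamily, had 275 units in GCT27 and 1889 in GCT44, against 81.9 in TCam-2 and 62.5 in NT2D1. PCDHB7, from the clustered protocadherins, had 473 units in GCT27 and 768 in GCT44, against 42.5 in TCam-2 and 80.3 in NT2D1, a 5.89-fold difference. Of 30 PCDH genes compared, 3 were higher, 0 lower and 27 did not meet the rule, with a median pair difference of 0.46 against 0.02 over all genes compared. PCDH17 missed the rule when probe sets were summarised by their median (margin 0.90), when the probe set was chosen by the highest mean of log2 (margin 0.64) and when GCT44 was left out (margin 0.64). Its neighbour among the genes compared on chromosome 13 was LINC00458.

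LRFN5, an adhesion protein of synapses, had 1462 units in GCT27 and 446 in GCT44, against 3.52 in TCam-2 and 50.5 in NT2D1. COL6A1, a chain of collagen VI, had 1961 units in GCT27 and 3469.6 in GCT44, against 431 in TCam-2 and 625 in NT2D1. LAMA2, a laminin chain of basement membranes, had 967 units in GCT27 and 199 in GCT44, against 91.3 in TCam-2 and 73.5 in NT2D1. GCT27 was above GCT44 for LRFN5 and LAMA2, and the reverse held for COL6A1. With the median over probe sets the margin was 0.98 for LRFN5, 0.58 for LAMA2 and 0.00 for COL6A1, which ends these calls. Without the probe sets of suffix _s_at and _x_at it was 0.43 for LAMA2 and 0.00 for COL6A1, and LAMA2 had 0.82 after scaling to the hybridization controls. ACTA2, smooth muscle actin, had 1201 units in GCT27 and 823 in GCT44, against 204 in TCam-2 and 253 in NT2D1. With the median over probe sets its margin was 0.00.

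EOMES, a T-box transcription factor of mesendoderm, was the transcription factor with the widest margin on this side. Its intensity was 1876 units in GCT27 and 26237 in GCT44, against 129.8 in TCam-2 and 238 in NT2D1, a 7.88-fold difference between the nearest lines. GCT44 was far above GCT27, and GCT27 still stood clear of TCam-2 and NT2D1. Of 23 mesoderm and mesenchyme genes compared, 2 were higher, EOMES and ACTA2, and 1 was lower, the matrix proteoglycan LUM. LUM had 47.6 units in GCT27 and 63.5 in GCT44, against 3354 in TCam-2 and 241 in NT2D1, and its margin was -0.88 with the median over its probe sets and -0.10 without those of suffix _s_at and _x_at, short of the rule. The list median was 0.35 against 0.02 over all genes. The list summed to 39375 units in GCT27 and 120454 in GCT44, against 48789 in TCam-2 and 55225.5 in NT2D1. That sum was high in GCT44 alone. The 12 fibroblast and endothelial genes compared summed to 5397 units in GCT27 and 707 in GCT44, against 4504 in TCam-2 and 5483 in NT2D1, with 7 and 4 of them above the floor in the GCT lines, against 9 and 10. LUM was the only one of them to meet the rule. Their part in these differences was not tested. EOMES had no other single-gene probe set.

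Further transcriptional regulators were higher at smaller margins and were picked by function after their values were seen. The nuclear receptor NR5A2, active in early embryo and liver, had 1264 units in GCT27 and 953 in GCT44, against 276 in TCam-2 and 157 in NT2D1. MITF, known as the regulator of melanocytes, had 593 units in GCT27 and 663 in GCT44, against 183 in TCam-2 and 99.5 in NT2D1. FOXA3, a forkhead factor of endoderm, had 249.8 units in GCT27 and 2506 in GCT44, against 29.2 in TCam-2 and 87.8 in NT2D1. NR5A2 and MITF were alike in both GCT lines, whereas FOXA3 was mainly a GCT44 transcript. HOXD1, a homeobox gene, had 367 units in GCT27 and 2556 in GCT44, against 108 in TCam-2 and 98.0 in NT2D1, and was the only 1 of 26 HOX genes compared to meet the rule. Its margin was 0.26 with probe sets summarised by their median and 0.00 without those of suffix _s_at and _x_at, which ends the call.

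Signalling genes on the higher side spanned kinases, regulators of G proteins and secreted antagonists. PRKCQ, the theta isoform of protein kinase C, had 1527 units in GCT27 and 1779.5 in GCT44, against 137 in TCam-2 and 261 in NT2D1, a 5.86-fold difference. SMAD7, an inhibitor of TGF-beta and BMP signalling, had 1922 units in GCT27 and 1989 in GCT44, against 679 in TCam-2 and 771 in NT2D1. DKK1, a secreted WNT antagonist, had 197 units in GCT27 and 1757 in GCT44, against 59.1 in TCam-2 and 59.4 in NT2D1. PRKCQ and SMAD7 were nearly equal in GCT27 and GCT44, while DKK1 was strongest in GCT44. The neuropeptide gene NTS had 3173 units in GCT27 and 6841 in GCT44, against 352 in TCam-2 and 706 in NT2D1, and NMB, which encodes neuromedin B, had 933 units in GCT27 and 1322 in GCT44, against 25.02 in TCam-2 and 439.6 in NT2D1. RGS4, which shortens G protein signals, had 507 units in GCT27 and 755 in GCT44, against 23.7 in TCam-2 and 153 in NT2D1.

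Of 20 WNT pathway genes compared, 1 was higher, DKK1, and 1 was lower, the ligand WNT5A. WNT5A had 241 units in GCT27 and 164 in GCT44, against 619 in TCam-2 and 1360.0 in NT2D1, and without the probe sets of suffix _s_at and _x_at its margin was -0.91, short of the rule. Of 24 BMP and NODAL pathway genes, 1 was higher, SMAD7, and 2 were lower. ID4, a BMP target that blocks helix-loop-helix factors, had 733 units in GCT27 and 542 in GCT44, against 6035 in TCam-2 and 3760.1 in NT2D1, a 5.13-fold difference. Its margin of -2.36 was -1.37 when probe sets were summarised by their median. BAMBI, a decoy receptor, had 1329 units in GCT27 and 2596 in GCT44, against 5536 in TCam-2 and 6529 in NT2D1. ID1, the paralogue most used as a BMP readout, had 5372 units in GCT27 and 20052 in GCT44, against 21099 in TCam-2 and 5810.0 in NT2D1, and did not meet the rule. The list medians were 0.35 for WNT and 0.06 for BMP and NODAL genes.

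Some higher members encode metabolic enzymes, picked by function after their values were seen. The aldo-keto reductases AKR1C1, AKR1C2 and AKR1C3, which reduce steroids and prostaglandins, were all higher and adjacent among the genes compared on chromosome 10. AKR1C3 had 765 units in GCT27 and 410.0 in GCT44, against 64.6 in TCam-2 and 47.3 in NT2D1. AKR1C1 had 435 units in GCT27 and 501 in GCT44, against 189 in TCam-2 and 68.0 in NT2D1, and AKR1C2 had 379 units in GCT27 and 397 in GCT44, against 141 in TCam-2 and 25.2 in NT2D1. These genes are near-identical, so the member that gave each signal is uncertain. Adenosine deaminase, ADA, had 2039 units in GCT27 and 1941 in GCT44, against 448 in TCam-2 and 511 in NT2D1, and monoamine oxidase A, MAOA, had 363 units in GCT27 and 3895 in GCT44, against 91.8 in TCam-2 and 58.5 in NT2D1. ADA was alike in both GCT lines, while MAOA was much brighter in GCT44 than in GCT27.

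HPRT1, the purine salvage enzyme often taken as a stable reference transcript, had 9693 units in GCT27 and 10026 in GCT44, against 3705 in TCam-2 and 3724 in NT2D1. It was the only 1 of 10 housekeeping genes compared to meet the rule, and its values were close within each pair. Of 19 hypoxia and glycolysis genes, 2 were higher and 0 lower, with a list median of 0.11. BNIP3, a mitophagy receptor induced by hypoxia, had 18193 units in GCT27 and 21119 in GCT44, against 7084 in TCam-2 and 2229 in NT2D1. ALDOC, an aldolase, had 1706 units in GCT27 and 647 in GCT44, against 256 in TCam-2 and 272 in NT2D1, and with arrays scaled to the hybridization controls its margin was 0.93, short of the rule. VEGFA, a classic hypoxia target, had 582 units in GCT27 and 1926 in GCT44, against 1548 in TCam-2 and 876 in NT2D1, so its lines overlapped.

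Other wide margins belonged to genes with no common role. AGGF1, an angiogenic factor, had 1593 units in GCT27 and 2111 in GCT44, against 102 in TCam-2 and 24.4 in NT2D1, a 15.6-fold difference. TMEM232, a membrane protein of little known function, had 1114 units in GCT27 and 1032 in GCT44, against 3.18 in TCam-2 and 16.7 in NT2D1. CALB1, the calcium buffer calbindin, had 1344 units in GCT27 and 1712 in GCT44, against 130.1 in TCam-2 and 42.9 in NT2D1. In each of them the GCT lines were close together and TCam-2 and NT2D1 lay far below. With probe sets summarised by their median, the margin was 2.84 for AGGF1, 1.78 for TMEM232, 1.44 for CCDC141 and 1.70 for MYCT1, against 3.97, 3.76, 2.90 and 2.86 with the chosen probe set. For TMEM232 it was 1.67 with the probe set of highest mean log2. The arylsulfatase gene ARSL was at least 8.87-fold higher, the sulfotransferase gene CHST9 8.51-fold, LRRC2 at least 7.79-fold, CCDC141 7.45-fold, MYCT1 at least 7.28-fold and ZCCHC12 at least 6.89-fold. MAGEA6 and MAGEA12, cancer-testis genes with near-identical copies, were at least 4.82-fold and at least 3.84-fold higher. MAGEA6 had 368 units in GCT27 and 28020.4 in GCT44, against 64.2 in TCam-2 and 32.5 in NT2D1, so its level in GCT27 was a small part of that in GCT44.

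On the lower side, SCG5 and TDRD12 had nearly the same margin. SCG5, the 7B2 chaperone of a prohormone convertase, had 93.8 units in GCT27 and 5.50 in GCT44, against 1808 in TCam-2 and 2846 in NT2D1, a 19.3-fold difference. TDRD12, a tudor-domain helicase of the piRNA pathway, which silences transposons in the germ line, had 184 units in GCT27 and 6.97 in GCT44, against 3535 in TCam-2 and 3719.6 in NT2D1, a 19.2-fold difference. Both genes were bright in TCam-2 and NT2D1, above the floor in GCT27 and under it in GCT44. SCG5 and TDRD12 had no other single-gene probe set.

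By the roles assigned by hand to the members, 4 of 143 higher genes were germ line genes, MAGEA6, MAGEA12, NLRP4 and SPAG4. Of 157 lower genes 6 were, TDRD12, RPL39L, SPESP1, HENMT1, NANOS1 and HSPA2. Only members were given roles, so no share over all genes compared is at hand. Whether germ line genes are a trait of either side therefore cannot be said. HENMT1, which methylates the 3' ends of piRNAs, had 47.6 units in GCT27 and 359 in GCT44, against 1638 in TCam-2 and 1391 in NT2D1. PIWIL2, a PIWI protein that binds piRNAs, had 53.6 units in GCT27 and 5.20 in GCT44, against 47.2 in TCam-2 and 1376 in NT2D1, and did not meet the rule. NANOS1, a translational repressor of germ cells, had 447 units in GCT27 and 125 in GCT44, against 1719.6 in TCam-2 and 1073 in NT2D1. RPL39L, a ribosomal protein paralogue abundant in testis, had 24.9 units in GCT27 and 281 in GCT44, against 1524 in TCam-2 and 2380.2 in NT2D1. The sperm protein gene SPESP1 had 5.66 units in GCT27 and 11.1 in GCT44, against 1334 in TCam-2 and 332 in NT2D1. For HENMT1, NANOS1, RPL39L and SPESP1 the rule itself places TCam-2 and NT2D1 above both GCT lines. For PIWIL2, TCam-2 lay under the floor with both GCT lines.

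Of 17 germ cell and seminoma genes compared, 0 were higher, 2 lower and 15 did not meet the rule, with a list median of -0.81. TFAP2A, the AP-2 alpha transcription factor, had 41.6 units in GCT27 and 30.3 in GCT44, against 3975 in TCam-2 and 676 in NT2D1, at least 8.85-fold lower. CXCR4, a chemokine receptor of migrating germ cells, had 91.5 units in GCT27 and 157 in GCT44, against 11729 in TCam-2 and 439 in NT2D1. Both were far brighter in TCam-2 than in NT2D1. With the median over probe sets the margins were 0.00 for TFAP2A and -0.94 for CXCR4, which ends both calls. PRAME, SOX17 and TCL1A, seminoma genes of that list, did not meet the rule, since NT2D1 lay under the floor for each.

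GAS1, a co-receptor of hedgehog ligands, had 95.7 units in GCT27 and 61.3 in GCT44, against 1707 in TCam-2 and 3457 in NT2D1, a 17.8-fold difference. DUSP23, a phosphatase, had 37.4 units in GCT27 and 71.8 in GCT44, against 1007 in TCam-2 and 1827 in NT2D1. RGS16, a regulator of G protein signals, had 60.6 units in GCT27 and 18.3 in GCT44, against 488 in TCam-2 and 971 in NT2D1. The GCT lines were at or near the floor for these genes. GAS1 missed the rule when probe sets were summarised by their median, and GAS1 and RGS16 missed it without the probe sets of suffix _s_at and _x_at, each with a margin of 0.00. The margin of RGS16 was -2.68 with the chosen probe set and -1.73 with the median. RASSF2, a RAS-associated tumour suppressor, had 58.3 units in GCT27 and 7.41 in GCT44, against 1878 in TCam-2 and 408 in NT2D1. CDKN1C, an imprinted inhibitor of cyclin-dependent kinases, had 322 units in GCT27 and 6.65 in GCT44, against 1825 in TCam-2 and 1052 in NT2D1, and was the only 1 of 19 imprinted genes to meet the rule.

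IGF-binding proteins, which hold insulin-like growth factors outside the cell, were lower for IGFBP5 and IGFBP3. IGFBP5 had 52.3 units in GCT27 and 6.78 in GCT44, against 608 in TCam-2 and 1084 in NT2D1, at least 7.96-fold lower. IGFBP3 had 96.4 units in GCT27 and 6.70 in GCT44, against 9385 in TCam-2 and 256 in NT2D1. IGFBP2, by contrast, had 4735 units in GCT27 and 4.51 in GCT44, against 94.7 in TCam-2 and 4855 in NT2D1, and was bright in GCT27 and NT2D1. The 23 genes compared of the FGF, IGF and ERK list held 0 higher and 2 lower members, with a median of -0.30. FGF11, outside the list, was higher, with 349 units in GCT27 and 687 in GCT44, against 51.7 in TCam-2 and 134 in NT2D1. With the median over probe sets the margins of IGFBP5 and IGFBP3 were 0.00. PTN, the growth factor pleiotrophin, had 1148 units in GCT27 and 108 in GCT44, against 12654 in TCam-2 and 5321 in NT2D1, and EDN1, endothelin, had 14.02 units in GCT27 and 6.29 in GCT44, against 1260.2 in TCam-2 and 163 in NT2D1.

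Several lower members encode transcription factors, of which those other than NFIB were picked after their values were seen. NFIB, a nuclear factor I protein, had 41.6 units in GCT27 and 5.55 in GCT44, against 2623 in TCam-2 and 396 in NT2D1. Of its 8 other probe sets, 4 reached 2-fold over the floor in TCam-2 or NT2D1, and 3 of those met the rule as well. Over all its probe sets the median gave a margin of -0.08, short of the rule. HES1, a target of Notch, had 407 units in GCT27 and 694 in GCT44, against 1778 in TCam-2 and 2955 in NT2D1. JAG1, a Notch ligand, had 1957 units in GCT27 and 647 in GCT44, against 4272 in TCam-2 and 5960.4 in NT2D1. HES1 and JAG1 were reduced but bright in the GCT lines rather than absent. ATF3, a stress-induced factor, had 357 units in GCT27 and 169 in GCT44, against 2161 in TCam-2 and 1355 in NT2D1, and KLF3, a Krüppel-like repressor, had 399 units in GCT27 and 146 in GCT44, against 2693 in TCam-2 and 1586 in NT2D1.

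Cytoskeletal genes included bright members. TPM1, a tropomyosin of actin filaments, had 5753 units in GCT27 and 3053 in GCT44, against 31129 in TCam-2 and 29337 in NT2D1. ANXA2, a membrane-binding annexin, had 7965 units in GCT27 and 4312 in GCT44, against 16329 in TCam-2 and 19717 in NT2D1, and its pseudogenes ANXA2P1 and ANXA2P3 met the rule through probe sets that near-identical copies can share. AHNAK, a giant scaffold protein, had 231 units in GCT27 and 333 in GCT44, against 8183 in TCam-2 and 1037 in NT2D1. GSN, which severs actin filaments, had 430.5 units in GCT27 and 176 in GCT44, against 3655 in TCam-2 and 898 in NT2D1. None of the other 6 probe sets of GSN and 4 of AHNAK reached 2-fold over the floor in TCam-2 or NT2D1. PROM1, the stem cell surface protein CD133, had 1104 units in GCT27 and 1715 in GCT44, against 16167 in TCam-2 and 6467 in NT2D1. Expression was lower rather than missing in GCT27 and GCT44 for TPM1, ANXA2 and PROM1.

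Immune genes lay on both sides. PYCARD, the inflammasome adaptor ASC, had 20.7 units in GCT27 and 49.97 in GCT44, against 1554 in TCam-2 and 393 in NT2D1. ERAP1, which trims peptides for class I molecules, had 83.4 units in GCT27 and 159.8 in GCT44, against 829 in TCam-2 and 811 in NT2D1. CD55, which protects cells from complement, had 970.3 units in GCT27 and 834 in GCT44, against 3894 in TCam-2 and 2453 in NT2D1. These were lower in the GCT pair, while ISG15, a ubiquitin-like protein induced by interferon, was higher and had 1465 units in GCT27 and 529.8 in GCT44, against 252 in TCam-2 and 235 in NT2D1. ISG15 was the only 1 of the 26 genes compared of the antigen presentation and interferon list to meet the rule. Scaled to the hybridization controls its margin was 0.77, short of the rule. Immune members outside that list included ERAP1, MX2 and PSME1. MX2 was lower, with 4.97 units in GCT27 and 7.14 in GCT44, against 224 in TCam-2 and 202 in NT2D1. PSME1 was higher, with 2118 units in GCT27 and 1447 in GCT44, against 702 in TCam-2 and 288 in NT2D1. CD3D, a T cell receptor subunit, had 161 units in GCT27 and 2803 in GCT44, against 17.2 in TCam-2 and 22.4 in NT2D1, while its partner CD3E had 51.4 units in GCT27 and 88.4 in GCT44, against 61.4 in TCam-2 and 54.7 in NT2D1. The 6 blood cell genes compared summed to 763 units in GCT27 and 3269 in GCT44, against 324 in TCam-2 and 518 in NT2D1, most of the GCT44 sum being CD3D. Of these 6 genes, 4 lay above the floor in GCT27 and 4 in GCT44, against 1 in TCam-2 and 2 in NT2D1, and their part in the immune differences was not tested.

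Remaining wide margins on this side were those of the reductase CYB5R2 (8.14-fold), the opsin OPN3 (6.88-fold), the globoside synthase B3GALNT1 (at least 6.68-fold) and BTBD6 (at least 6.30-fold). BLACAT1 was 7.05-fold lower. It adjoins LEMD1, also a member, among the genes compared on chromosome 1, and signals of overlapping transcripts may not be told apart by these probes. Amino acid carriers were among the bright members. SLC7A5, which imports large neutral amino acids, had 599.7 units in GCT27 and 407 in GCT44, against 1942 in TCam-2 and 2168 in NT2D1. SLC38A1, a glutamine carrier, had 4637 units in GCT27 and 1455 in GCT44, against 18049.8 in TCam-2 and 12701 in NT2D1. PHGDH, the first enzyme of serine synthesis, had 694 units in GCT27 and 1134 in GCT44, against 2291 in TCam-2 and 4099 in NT2D1. All of these were present in every line and lower in the GCT pair. SLC1A1, a glutamate carrier, was a member in the other direction. It had 836 units in GCT27 and 824 in GCT44, against 174 in TCam-2 and 301 in NT2D1. Of 289 SLC genes compared, 4 were higher and 4 lower.

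Of the 25 lists, 13 held at least 1 member and 12 held none. Since about 1% of all genes compared met the rule in each direction, a list of this size with no member is near the background. The lists with none were 18 pluripotency, 14 naive pluripotency, 11 primed pluripotency, 22 yolk sac and endoderm, 21 epithelial adhesion, 15 neural, 14 trophoblast, 20 silencing machinery, 21 methylation target, 19 p53 and apoptosis, 26 redox and metallothionein and 22 cell cycle genes compared. DNMT3B, the de novo methyltransferase of pluripotent cells, had 23760.4 units in GCT27 and 2377 in GCT44, against 2841 in TCam-2 and 11360.0 in NT2D1, so GCT27 and NT2D1 were the brighter lines. Medians of these lists ranged from -1.21 for trophoblast and -0.94 for epithelial adhesion to 0.44 for p53 and 0.82 for yolk sac genes, the last of which rests on GCT44. The median of the primed list, -0.07, changed sign with the scaling of the arrays. Over all 25 lists, 12 of 423 genes compared were higher (2.84%) and 9 lower (2.13%), beside 0.953% and 1.05% of all genes compared. The lists hold genes known from these tumours beside general ones, such as housekeeping and cell cycle genes. They were chosen with earlier results of these data known and were not drawn at random. Their higher shares therefore carry no test.

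Gene families taken by symbol gave similar small counts. Of 455 ZNF genes, ZNF792 was higher and ZNF704 and ZNF596 were lower. Of 263 LINC genes, LINC00458 was higher and 4 were lower, among them LINC00622 with 65.7 units in GCT27 and 14.7 in GCT44, against 350.9 in TCam-2 and 1050.2 in NT2D1. Of 186 TMEM genes, 4 were higher and 3 lower. RPL39L was the only member among 74 ribosomal protein genes, KRT10 among 17 keratins, COL6A1 among 36 collagens and LAMA2 among 10 laminins. KRT10, a keratin of epidermis, had 6254 units in GCT27 and 5689 in GCT44, against 1209 in TCam-2 and 2686 in NT2D1. Scaled to the hybridization controls, the margins of KRT10, ZNF704 and ZNF596 were 0.76, -0.93 and -0.92, short of the rule, and that of ZNF704 was 0.00 with the median over probe sets. No histone gene of 42 compared met the rule, although the median of the family was 0.49. The histone genes summed to 43789 units in GCT27 and 161378 in GCT44, against 49016 in TCam-2 and 49523 in NT2D1. That sum was high in GCT44 alone. Of 11 MAGE genes, MAGEA6 and MAGEA12 were the members.

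**Figure D2:**
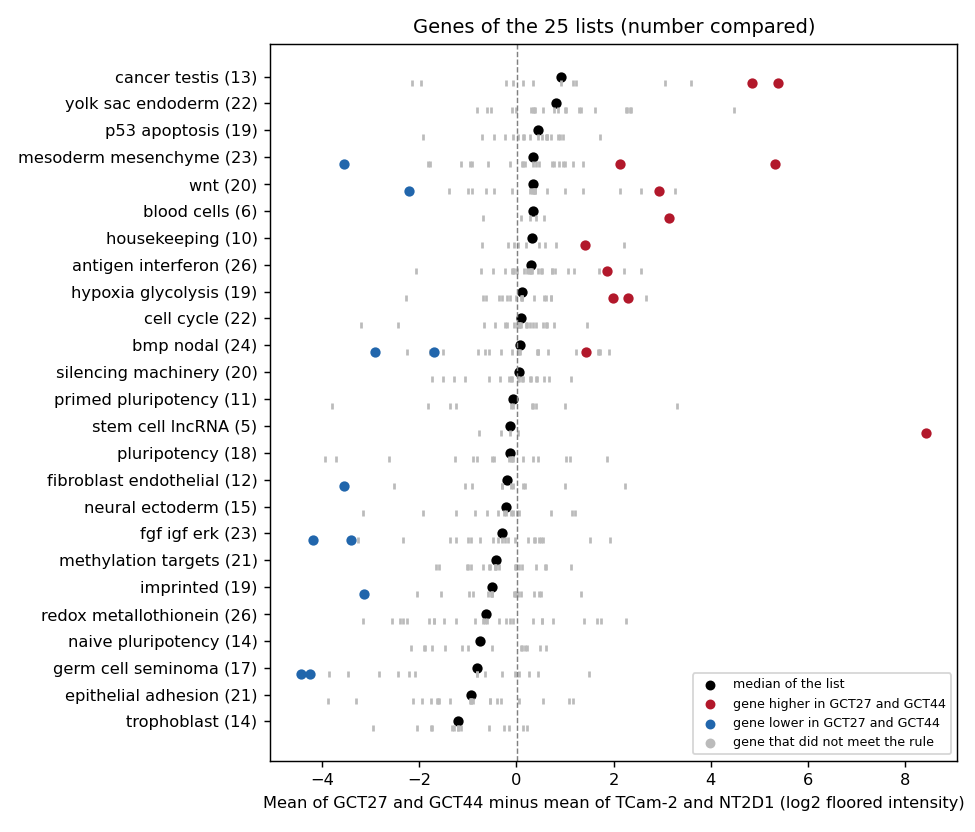
Pair difference (mean of GCT27 and GCT44 minus mean of TCam-2 and NT2D1, log2 of floored intensity) for genes of the 25 lists, with black points for list medians, red and blue points for genes that met the rule and grey ticks for the rest. List medians run from -1.21 for trophoblast to 0.92 for cancer-testis genes, and LINC00458 is the point furthest to the right. The cancer-testis genes summed to 1127 units in GCT27 and 62357 in GCT44, against 4568 in TCam-2 and 340 in NT2D1.

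Within the pairs, the lines of a member were not always alike. Of the 143 higher genes, GCT44 had the highest value for 95 and GCT27 for 48. GCT44 exceeded GCT27 by more than 1 on the log2 scale for 34, the reverse held for 8, and 101 lay within 1. Of the 157 lower genes, TCam-2 had the highest value for 89 and NT2D1 for 68. TCam-2 exceeded NT2D1 by more than 1 for 36, the reverse held for 6, and 115 lay within 1. The median absolute gap between GCT44 and GCT27 was 0.54 for higher genes, against 0.53 over all genes compared. Both lines of the dimmer pair lay under the floor for 30 higher and 37 lower genes, so these folds are lower bounds.

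**Figure D3:**
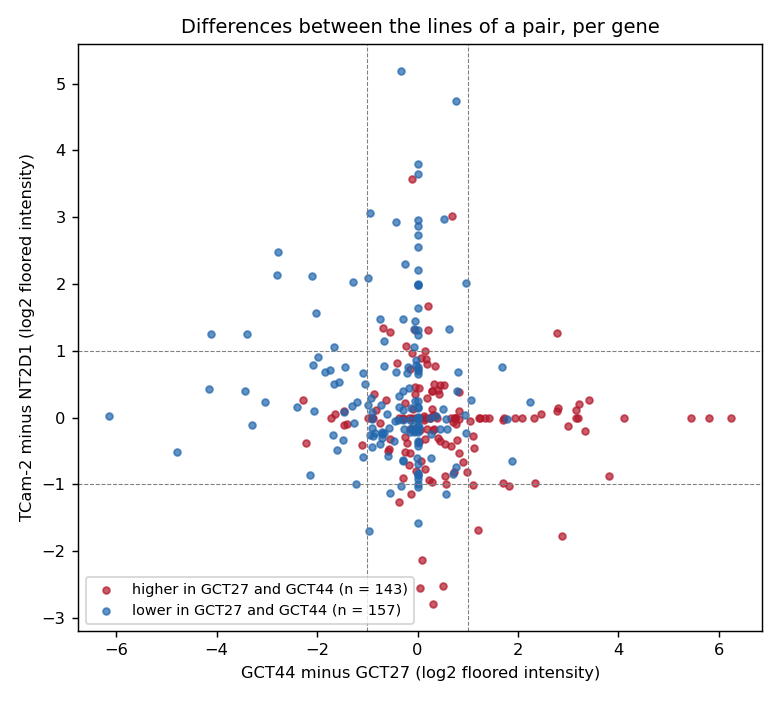
Each point is a gene that met the rule, red if higher and blue if lower in GCT27 and GCT44, with the log2 difference between GCT44 and GCT27 across and between TCam-2 and NT2D1 upward, and dashed lines at 1 and -1. Most points lie near the centre, 101 of 143 red points lie within 1 across, and the red points beyond lie mostly to the right.

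The rule used 1 probe set per gene, so other single-gene probe sets of a member were read from the same arrays without having been used by it. They share the RNA and the hybridization, and they are a description of probe agreement only. Only probe sets that reached 2-fold over the floor in a line of the brighter pair of the gene were counted. A probe set bright in the opposite pair alone was left out, so the counts lean toward agreement. Of the 143 higher genes, 57 had no other probe set and 32 had none that reached 2-fold over the floor in GCT27 or GCT44. Among the remaining 54, every such probe set met the rule for 21 genes, some did for 8 and none did for 25. Of the 157 lower genes, 54 had no other probe set and 36 none bright enough in TCam-2 or NT2D1. Among the remaining 67, all met the rule for 15, some for 14 and none for 38, and for 11 of these the pairs overlapped in every such probe set. Among genes described here, none of the other bright probe sets met the rule for MYCT1, DHRS2, PCDH17, PIK3R5, LAMA2, MAP2K4, ERAP1, ATF3, CCDC71L, IGFBP3, WNT5A, CD55, LINC02076, ZNF704, CAST and GUCA1A.

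Genes at the limit of the rule were as follows. Just inside on the higher side lay TMEM219 with a margin of 1.0005 and MAP2K4 with 1.003. Just outside lay FKBP10 with 0.9997 and LOC100507560 with 0.995. On the lower side GUCA1A (1.002) and HS6ST1 (1.005) lay just inside, and SOBP (0.9997) and XKR6 (0.9989) just outside.

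Members were also counted by chromosome, with no test of their spread. Chromosome 17 held 16 higher and 2 lower genes among 853 compared, 1.88% and 0.234%. Chromosome X held 13 and 3 among 548 (2.37% and 0.547%), and chromosome 18 held 6 and 2 among 230 (2.61% and 0.87%). Chromosome 8 had the reverse split, with 2 higher and 13 lower among 548, 0.365% and 2.37%. The median pair difference was 0.27 on chromosome 17 and -0.17 on chromosome 8, against 0.02 over all genes compared.

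On chromosome 17 the median difference was larger at 1 end. Its first 200 compared genes held 9 higher (4.5%) and 0 lower members, and their median pair difference was 0.49, against 0.18 over the other 653. These 9 were VPS53, PITPNA-AS1, RILP, TMEM256, FGF11, SAT2, TRAPPC1, PIK3R5 and MAP2K4. RILP, an adaptor of late endosomes, had 587 units in GCT27 and 352 in GCT44, against 67.4 in TCam-2 and 80.8 in NT2D1. SAT2, a polyamine acetyltransferase homologue, had 2196 units in GCT27 and 5172 in GCT44, against 1010.1 in TCam-2 and 1015 in NT2D1. TMEM256, a small membrane protein, had 4155 units in GCT27 and 4705 in GCT44, against 1828 in TCam-2 and 1048 in NT2D1. VPS53, of the tethering complex for retrograde transport, had 252 units in GCT27 and 265 in GCT44, against 19.1 in TCam-2 and 119.5 in NT2D1. None of the 8 other probe sets of VPS53 reached 2-fold over the floor in GCT27 or GCT44. The 9 genes share their position and were given no common role.

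Relative to the mean of the 4 lines, the same 200 genes had a median of 0.27 in GCT27 and 0.19 in GCT44, against -0.38 in TCam-2 and -0.11 in NT2D1. When all chromosomes were divided into 150 blocks of up to 100 compared genes, the first 3 blocks of chromosome 17 had the 3 highest median differences, the largest being 0.50. The lowest, -0.50, was that of the first block of chromosome 8. By number of higher genes, 3 blocks held 5 or more. A block of chromosome X and the second of chromosome 17 held 6 each, and the first of chromosome 10 held 5. The medians of the X and chromosome 10 blocks were 0.35 and 0.42. The block of 200 was chosen after the values were seen.

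**Figure D4:**
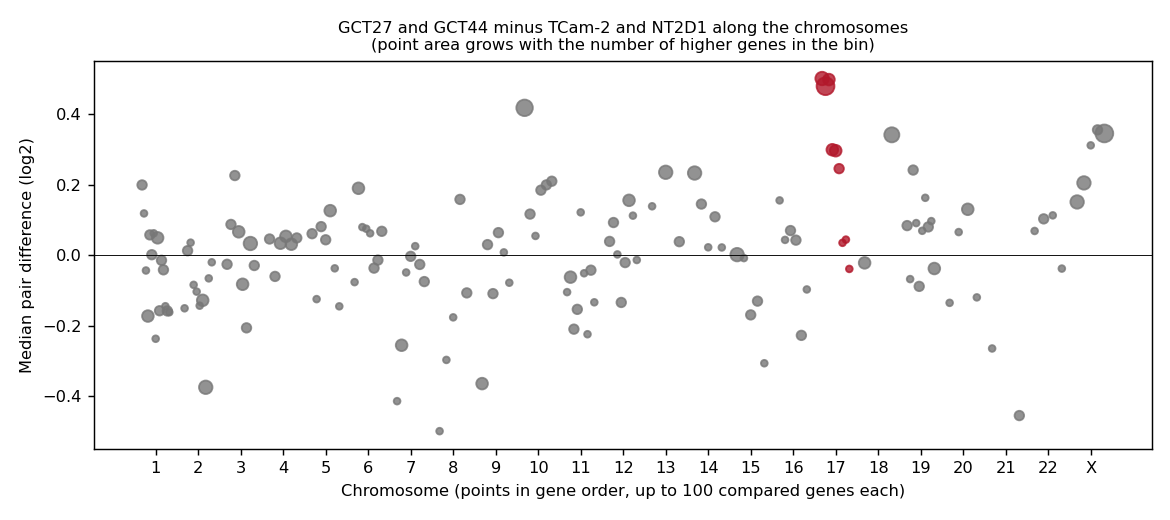
Median pair difference (GCT27 and GCT44 minus TCam-2 and NT2D1, log2) in blocks of up to 100 compared genes in gene order along each chromosome, with chromosome 17 in red and point area growing with the number of higher genes. The first 3 blocks of chromosome 17 lie highest, at up to 0.50, and its last blocks lie near 0.

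Some members were direct neighbours among the genes compared. On the higher side these were AKR1C1 to AKR1C3, LINC00458 and PCDH17, NLRP4 and NLRP11, TTN and CCDC141, DHRS2 and DHRS4-AS1, and MAGEA6 and MAGEA12. On the lower side they were LEMD1 and BLACAT1, CAST and ERAP1, TRIM2 and ANXA2P1, and CCDC71L and PRKAR2B. NLRP4, expressed in oocytes, had 387 units in GCT27 and 210.3 in GCT44, against 8.02 in TCam-2 and 3.22 in NT2D1, and NLRP11 had 234 units in GCT27 and 238 in GCT44, against 82.0 in TCam-2 and 105 in NT2D1. Both were above the floor in both GCT lines, and NLRP11 was also above it in TCam-2 and NT2D1.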

How the data were processed

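Expression was measured on 1 array for each of 4 lines. The deposited values are linear intensities of 54675 probe sets, and the authors' scaling left a 2% trimmed mean of 500.1 units on every array. The submitters' processing notes name RMA without a version, although RMA usually gives log2 values, so the exact steps between scan and deposited intensity are not given in the sources used here. The arrays' number, not a read depth, limits precision.

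Of the probe sets, 41097 name 1 gene, 1801 several and 11777 none in the platform annotation. 41043 of those with 1 gene were matched to RefSeq by gene identifier. For each of 19775 genes the probe set with the highest mean intensity was kept, values under 76.4 units were set to that floor, log2 was taken, and 15001 genes with a line above the floor were compared (Python 3.11.15, pandas 2.3.3). limma 3.58.1 in R 4.3.3 was fitted to all of them with an intensity trend, after a test on simulated data. The 25 gene lists, 12 families, roles and members were chosen with earlier results of these data known. Genes named by rule were LINC00458, the 15 widest margins each way, the 2 each way nearest the limit on either side, and up to 4 members of each list or family. XIST and Y-linked genes were left out, and others were chosen by function after their values were seen. Alternatives changed the probe set choice, floor, margin, scaling and lines.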

Additional observations from a re-analysis of the deposited data

How the results depend on the processing

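The counts of 143 higher and 157 lower genes depended on the floor and on all 4 lines. With no floor they were 305 and 300, with a floor at the 70th percentile (252 units) 74 and 84, with a margin of 2 they were 27 and 28, and with the difference of pair means in place of the margin 1014 and 1110. Leaving out 1 line gave 538 to 1012 higher and 513 to 968 lower genes, a rule that fewer lines make easier to meet. The lowest higher count came without TCam-2 and the highest without GCT27, while the lowest lower count came without GCT44 and the highest without NT2D1. Changing the probe set choice or the scaling gave 114 to 145 higher and 105 to 171 lower genes. With the median over probe sets 94 of the higher and 85 of the lower genes were shared with the main counts, and with scaling to the hybridization controls 116 and 122. limma called 0 genes in every alternative, with a smallest adjusted p between 0.0857 and 0.999. Over 86 named genes and 14 alternatives, 1038 of 1183 values kept their direction and side of the rule, 106 fell short of it, 38 passed it and 1 reversed. That one was LINC02076, lower by the rule, whose margin ranged from -1.29 without GCT44 to 0.12 without GCT27. The cause was not tested. The totals pool unlike settings and include named genes that did not meet the rule. For members, the difference of pair means and no floor cannot fall short, and leaving out a line seldom does. Those settings gave 0, 0 and 0 to 2 genes falling short. The floor at the 70th percentile gave 25 and the median over probe sets 20. The pooled total is therefore no measure of robustness. The chromosome 17 block, chosen after the values were seen, had a median of 0.33 to 0.67 relative to all genes when 1 line was left out, against 0.48. No paired analysis was possible because each line has 1 array and the labels give no replicate numbers.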

Other observations

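Probe sets with no gene in the platform annotation also met the rule. Of 11777 such probe sets, 5381 reached the floor, 25 were higher and 23 lower in GCT27 and GCT44. As shares of those that reached the floor, both lie under the 0.953% and 1.05% over genes compared. The widest higher margin was that of 244340_x_at, with 747 units in GCT27 and 1783 in GCT44, against 74.1 in TCam-2 and 91.0 in NT2D1. The widest lower margin was that of 237060_at, with 72.3 units in GCT27 and 5.19 in GCT44, against 318 in TCam-2 and 219 in NT2D1. Among 1801 probe sets that name several genes, 1309 reached the floor, 18 were higher and 7 lower.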
